A study of Mus musculus with 10 samples.

Results

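The *Ugt1a* locus of the mouse carries a nested family of UDP-glucuronosyltransferase genes, and its transcripts were examined in livers of humanized mice treated with MI-883, a human CAR agonist and PXR antagonist. The members were taken by name as the 8 *Ugt1a* genes of the count table, *Ugt1a1*, *Ugt1a2*, *Ugt1a5*, *Ugt1a6a*, *Ugt1a6b*, *Ugt1a7c*, *Ugt1a9* and *Ugt1a10*, out of 16647 listed genes. The RNA came from livers of 5 control mice, which received vehicle, and of 5 mice that received MI-883, all males of the PXR-CAR-CYP3A4/3A7 strain, in which human PXR, CAR, CYP3A4 and CYP3A7 genes stand in for the mouse counterparts. All 10 animals, controls included, carried the humanized genes. They were 10 to 15 weeks old at the start of a high-fat diet (HFD). The diet was fed for 8 weeks before treatment and was kept on during treatment. The compound was given by oral gavage 3 times a week over 4 weeks, with 5 mg/kg at each gavage, in a mixture of DMSO, PEG300 and corn oil that control mice received alone. Library totals ranged from 24014461 to 36221514 counts in the control group and from 23513665 to 28349963 in the MI-883 group. In a principal component analysis, along the leading component (40.1% of the variance of the most variable genes), control livers 1 and 2 lay within the range of the MI-883 group and controls 3 to 5 outside it, and fits without each liver are given beside the results they change. *Ugt1a8*, which also lies in the locus, was not analysed here.

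UDP-glucuronosyltransferases of the endoplasmic reticulum attach glucuronic acid to bilirubin, steroids, drugs and phenols, which makes them water-soluble for export into bile or blood. Each *Ugt1a* gene has its own promoter and its own first exon, which encodes the substrate-binding part of the enzyme. This exon is spliced to a common set of downstream exons that encode the part binding UDP-glucuronic acid. *Ugt1a1* encodes the main bilirubin-conjugating enzyme, and the *Ugt1a6* and *Ugt1a9* enzymes are known for the conjugation of phenols. In liver the locus is known as a target of CAR, PXR and the aryl hydrocarbon receptor.

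All members lie on the plus strand of chromosome 1 of GRCm38. By the GENCODE M21 transcript of each member, the first coding exon is at chr1:88055411-88056336 for *Ugt1a10*, chr1:88070800-88071678 for *Ugt1a9*, chr1:88095064-88095978 for *Ugt1a7c* and chr1:88106941-88107799 for *Ugt1a6b*. It is at chr1:88138473-88139331 for *Ugt1a6a*, chr1:88166012-88166903 for *Ugt1a5*, chr1:88200601-88201500 for *Ugt1a2* and chr1:88211959-88212871 for *Ugt1a1*. *Ugt1a6a* and *Ugt1a6b* each have a further exon of 127 bases upstream. The shared exons start at chr1:88215044, downstream of *Ugt1a1*. The last of them has 871 to 878 bases in the other transcripts but 1876 bases in that of *Ugt1a7c*, and this further part was not counted as the member's own, since RefSeq ends *Ugt1a7c* and 6 of the other members at the same position. The point where each first exon meets the shared part is printed for every member, because reads on the lower-case side, and not those on the other side, can tell the transcripts apart. Capitals mark the start of the first shared exon, chr1:88215044-88215063, and lower case marks the end of the member's own exon.
Ugt1a10: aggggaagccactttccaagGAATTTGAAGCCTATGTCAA
Ugt1a9: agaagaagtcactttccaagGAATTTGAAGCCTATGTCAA
Ugt1a7c: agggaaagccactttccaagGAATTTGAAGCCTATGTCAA
Ugt1a6b: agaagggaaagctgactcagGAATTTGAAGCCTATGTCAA
Ugt1a6a: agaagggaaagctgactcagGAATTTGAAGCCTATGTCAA
Ugt1a5: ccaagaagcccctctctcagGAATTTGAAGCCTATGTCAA
Ugt1a2: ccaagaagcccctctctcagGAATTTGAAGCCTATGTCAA
Ugt1a1: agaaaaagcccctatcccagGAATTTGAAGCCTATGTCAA
The capitals are the same in all 8 sequences. The lower-case ends of *Ugt1a6a* and *Ugt1a6b* are also identical to each other, as are those of *Ugt1a5* and *Ugt1a2*.

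**Figure D1:**
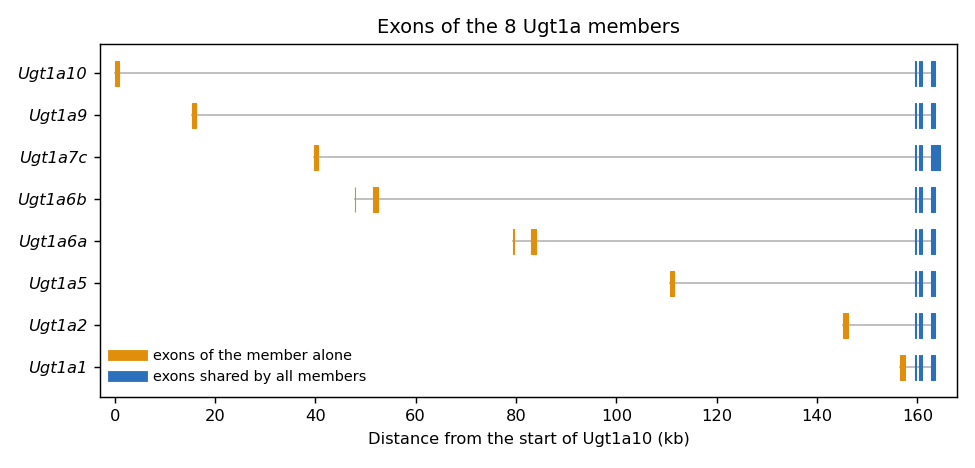
Exons of the 8 *Ugt1a* members against the distance from the start of *Ugt1a10* (kb), to scale, with exons of a member alone in orange and exons shared by all members in blue. The first exons lie one after another along the locus, and every transcript has the same downstream exons next to *Ugt1a1*, the last of which is longer in the transcript used for *Ugt1a7c*.

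The members' own exons differed in how well reads can place them. A stretch of 100 bases taken anywhere in a member's transcript also occurred in another member's transcript for between 39.4% (*Ugt1a7c*) and 71.5% (*Ugt1a6b*) of stretches. The low share of *Ugt1a7c* reflects its longer last exon, since the other transcripts end before the further part. The lowest share of the other members was 57.2% (*Ugt1a1*). Within the member's own exons the share was 0 for *Ugt1a1*, *Ugt1a7c*, *Ugt1a9* and *Ugt1a10*. It was 35.9% for *Ugt1a6a* and *Ugt1a6b*, each found in the other, and 2.14% for *Ugt1a5*, found in *Ugt1a2*. First exons of *Ugt1a6a* and *Ugt1a6b* were 97.0% identical over 859 aligned bases. Those of *Ugt1a9* and *Ugt1a10* were 86.9% identical, and that of *Ugt1a1* was at most 57.8% identical to any other, the highest being *Ugt1a5*. Counts of *Ugt1a6a* and *Ugt1a6b* were therefore read as uncertain between these genes, and counts of the other members as resting on their own exons as far as the counting allowed.

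How reads on the shared exons were assigned is not given in the sources used here. *Ugt1a2* was counted 0 to 3 times per liver, so at most 3 reads per liver can have been counted on all 8 members at once. Whether the shared-exon reads were left out or given to 1 member cannot be told apart from a table of counts per gene. The gene *Dnajb3*, which lies between the first exons of *Ugt1a2* and *Ugt1a1*, had 0 to 6 counts per liver. RefSeq also places a pseudogene, *Gm38421*, on the first exon of *Ugt1a10*, so counts of this member are uncertain too.

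Levels can be compared between members only per length, and CPM per kb of the exons that a member does not share was used. This scale takes the shared-exon reads as left out. Had they been given to a single member, its level, fold change and share of the locus would include reads of the others. CPM are counts divided by the TMM-scaled library size, so that libraries of unequal depth can be compared. In control livers *Ugt1a1* had the highest level, 240.4 ± 28.1 CPM per kb (S.D., n = 5), above the range of every other member. *Ugt1a5* followed at 40.2 ± 10.1, *Ugt1a6b* at 31.8 ± 3.14 and *Ugt1a6a* at 31.2 ± 2.14 CPM per kb, and the ranges of these neighbours overlapped. *Ugt1a9* came next at 16.3 ± 4.73 CPM per kb, below the range of *Ugt1a6a*. *Ugt1a10* at 0.431 ± 0.202 and *Ugt1a7c* at 0.290 ± 0.163 CPM per kb overlapped each other. *Ugt1a2* was at or under the floor of 3 counts in every liver of both groups, so no fold change was computed for it.

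After MI-883 the order changed in its second place. *Ugt1a9*, at 68.5 ± 20.9 CPM per kb (S.D., n = 5), now stood behind *Ugt1a1* at 352 ± 45.3 and ahead of *Ugt1a5* at 44.4 ± 9.51 CPM per kb, although the ranges of *Ugt1a9* and *Ugt1a5* overlapped. *Ugt1a6b* and *Ugt1a6a* came next at 39.3 ± 5.34 and 38.8 ± 9.20 CPM per kb, with overlapping ranges. Per kb of the whole transcript the members took the same order in each group.

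The question of the comparison was which of these transcripts MI-883 changed. Of the 8 members, 7 passed the minimum of 60 counts over the 10 livers, and *Ugt1a2* did not. With the quasi-likelihood test of edgeR and an adjusted P under 0.05, 2 members, *Ugt1a9* and *Ugt1a1*, were higher after MI-883 and 0 were lower. Over all 13219 tested genes, 0.764% were called higher and 0.265% lower. The unadjusted P was under 0.05 for 4 members, *Ugt1a9*, *Ugt1a1*, *Ugt1a6b* and *Ugt1a6a*, all higher, as it was for 8.09% of all tested genes toward higher and 7.49% toward lower. The Wald test of DESeq2 also called 2 members higher, with a background of 2.2% higher and 1.3% lower. The log2 fold change was positive for all 7 tested members, with a median of 0.55, and for 51% of all tested genes, whose median was 0.0045. Each comparison is of whole livers, so a change in the share of cells of a type and a change in RNA per cell cannot be told apart.

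The largest log2 fold change among the called members was that of *Ugt1a9*, which encodes an enzyme that conjugates bulky phenols and many drugs. Its level in control livers 1 to 5 was 16.0, 19.6, 8.83, 15.6 and 11.7 CPM. In MI-883-treated livers 1 to 5 it was 32.3, 76.0, 59.7, 55.6 and 77.4 CPM. The groups did not overlap: the lowest treated liver, number 1, stood above the highest control liver, number 2. The control mean was 14.3 ± 4.16 CPM and the mean after MI-883 was 60.2 ± 18.3 CPM (S.D., n = 5), a fold of 4.17 in the fit. This is a log2 fold change of 2.06 with an SE of 0.241 and an adjusted P of 0.000843 in edgeR. An exact permutation test (two-sided) on the means of log2(CPM + 0.5) gave P = 0.00794, which is the smallest value that 5 livers against 5 can give. Leaving out any 1 liver kept the adjusted P of *Ugt1a9* in edgeR between 0.000127 and 0.00445, and its log2 fold change between 1.93 and 2.22. It ranked 31 of 13219 tested genes by log2 fold change and 18 of the 136 called genes.

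*Ugt1a1*, the bilirubin-conjugating enzyme, had a smaller log2 fold change from a far higher level. It was at 213, 219, 220.4, 186 and 258 CPM in control livers 1 to 5. In MI-883-treated livers 1 to 5 it was at 257, 359, 307, 353 and 331 CPM. All 5 treated livers lay above the control median, but treated liver 1 stood just below control liver 5, so the groups overlapped at that point. In edgeR it rose by 0.55 on the log2 scale with an SE of 0.106 and an adjusted P of 0.0260, and the exact permutation test gave P = 0.0159. The call held in 4 of the 10 fits that left out a liver, with adjusted P of 0.00811 to 0.0482 in edgeR. Without control liver 2, 3 or 4, or without MI-883-treated liver 2, 4 or 5, it was lost: the adjusted P of edgeR was between 0.0553 and 0.0761, and the log2 fold change between 0.50 and 0.56.

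**Figure D2:**
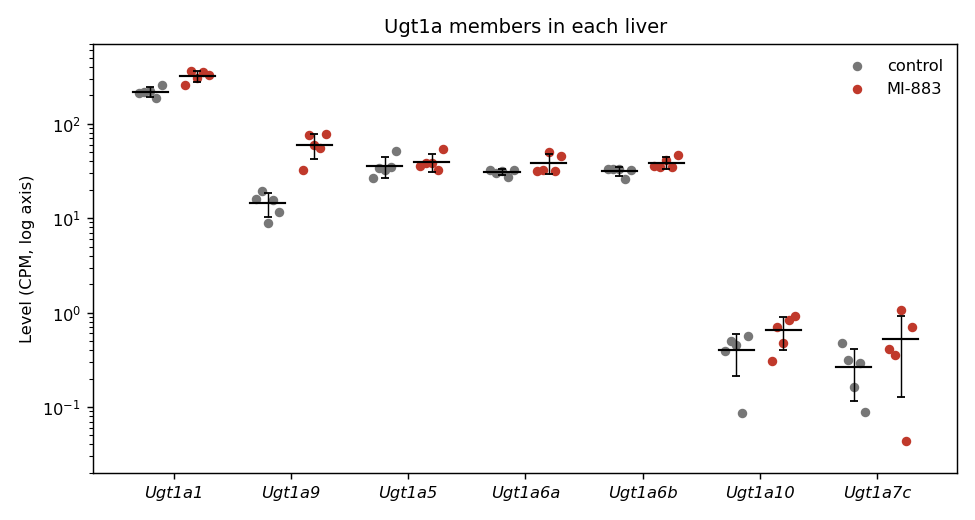
Level of 7 *Ugt1a* members in each liver (CPM, log axis), control livers in grey and MI-883-treated livers in red, in order of replicate from left to right within a group. Bars show the mean and S.D. of 5 livers. The groups are apart for *Ugt1a9* (control at most 19.6 CPM, MI-883 at least 32.3 CPM) and narrowly for *Ugt1a6b*, and *Ugt1a2*, with 0 to 3 counts per liver, is not drawn.

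*Ugt1a6b* and *Ugt1a6a*, whose enzymes conjugate small planar phenols, did not pass the edgeR test. *Ugt1a6b* was at 32.8, 32.9, 33.1, 25.9 and 32.3 CPM in control livers 1 to 5 and at 36.1, 34.9, 40.8, 34.9 and 47.1 CPM in MI-883-treated livers 1 to 5. Every treated liver was above every control liver for this gene, a pattern that 2.05% of all tested genes had, but the highest control liver, at 33.1 CPM, was close to the lowest treated liver, at 34.9 CPM. For *Ugt1a6b* the log2 fold change was 0.30 with an SE of 0.0991 and an adjusted P of 0.171 in edgeR and 0.0949 in DESeq2. The exact permutation test gave P = 0.00794.

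*Ugt1a6a* was at 32.2, 30.4, 31.3, 27.3 and 32.5 CPM in control livers and at 31.5, 32.3, 50.2, 31.3 and 45.8 CPM in MI-883-treated livers 1 to 5. Treated livers 3 and 5 stood above the rest, while the other treated livers lay within the control range. The fit gave *Ugt1a6a* a log2 fold change of 0.32 with an SE of 0.133 and an adjusted P of 0.277 in edgeR. Since reads can be exchanged between these near-identical genes, their counts were also summed, a choice made after seeing the data. The summed pair had a log2 fold change of 0.31, an SE of 0.111 and an adjusted P of 0.204 in edgeR.

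*Ugt1a5*, whose first exon lies between those of *Ugt1a6a* and *Ugt1a2*, gave the smallest log2 fold change of the tested members. It was at 26.9, 34.3, 32.5, 34.8 and 50.9 CPM in control livers and at 35.3, 38.5, 38.0, 32.0 and 54.0 CPM in MI-883-treated livers 1 to 5. The highest liver was number 5 in both groups, and the ranges overlapped over most of their width. Its log2 fold change was 0.14 with an SE of 0.166 and an adjusted P of 0.706 in edgeR.

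*Ugt1a10* and *Ugt1a7c*, which are known mainly from the gut and other tissues outside the liver, were close to the lower limit of measurement. *Ugt1a10* was counted 14, 16, 11, 3 and 13 times in controls 1 to 5 and 9, 16, 13, 19 and 26 times in treated livers 1 to 5. *Ugt1a7c* was counted 17, 10, 4, 10 and 2 times in controls 1 to 5 and 12, 8, 29, 1 and 20 times in treated livers 1 to 5. Both genes varied widely within each group and the groups overlapped. Their log2 fold changes were 0.72 with an SE of 0.427 for *Ugt1a10* and 0.91 with an SE of 0.567 for *Ugt1a7c*, with adjusted P of 0.439 and 0.457 in edgeR. With these SEs, a change of the size seen in *Ugt1a1* was not detectable for either gene. *Ugt1a10*, whose first exon is the closest to that of *Ugt1a9*, had at most 26 counts in a liver, against 216 to 2183 counts of *Ugt1a9*.

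**Figure D3:**
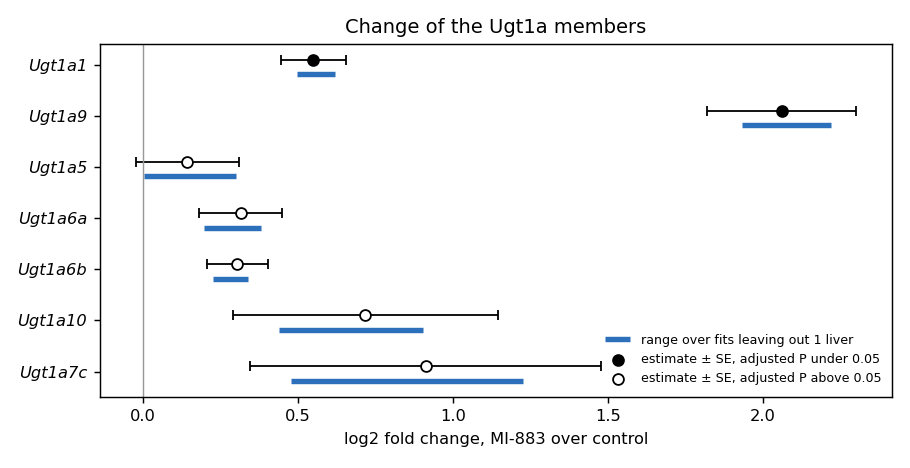
Log2 fold change of 7 *Ugt1a* members, MI-883 over control, from edgeR. Circles with bars show the estimate and its SE, filled where the adjusted P was under 0.05 (*Ugt1a1* at 0.55 and *Ugt1a9* at 2.06), and blue lines show the range over 10 fits that each left out 1 liver.

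Summed over the 8 members, the locus had 333 ± 34.9 CPM without and 499 ± 64.4 CPM with MI-883 (S.D., n = 5). The sum lay between 290.1 and 386 CPM in control livers and between 393 and 557 CPM after MI-883, without overlap. These sums are given as a description and were not tested. If shared-exon reads were given to a single member, its part of the difference includes reads of the others. Of the difference of 167 CPM between the group means, *Ugt1a1* made up 61.1% and *Ugt1a9* 27.5%. *Ugt1a6a* and *Ugt1a6b* made up 4.49% and 4.41%, and *Ugt1a5* 2.20%.

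In the makeup of the locus counts, the ranges of the groups were apart for *Ugt1a9* and for no other member. The share of *Ugt1a9* was 2.70% to 5.80% of the locus counts in control livers and 8.23% to 14.0% in MI-883-treated livers. *Ugt1a1* had 64.2% to 67.5% in control and 59.5% to 69.5% in treated livers, so that its share stayed within an overlapping range. The mean share of *Ugt1a5* was 10.7% ± 1.89 in control and 7.95% ± 1.38 in treated livers (S.D., n = 5), and those of *Ugt1a6a* and *Ugt1a6b* were 9.28% and 9.47% in control against 7.69% and 7.83% in treated livers, with overlapping ranges for all 3. For each count of *Ugt1a9* there were 11.2 to 25.0 counts of *Ugt1a1* in control livers and 4.28 to 7.95 in treated livers.

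The log2 ratio of *Ugt1a1* to the sum of the other members was 0.95 ± 0.085 in control and 0.86 ± 0.249 in treated livers (S.D., n = 5), with overlapping ranges. The ratio depended on the denominator. *Ugt1a5* was the most abundant other member in control livers. Against *Ugt1a5* alone, the log2 ratio was 2.64 ± 0.262 in control and 3.04 ± 0.324 in treated livers, with overlapping ranges. Against *Ugt1a9* alone it was 3.98 ± 0.534 in control and 2.47 ± 0.358 in treated livers, with no overlap.

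**Figure D4:**
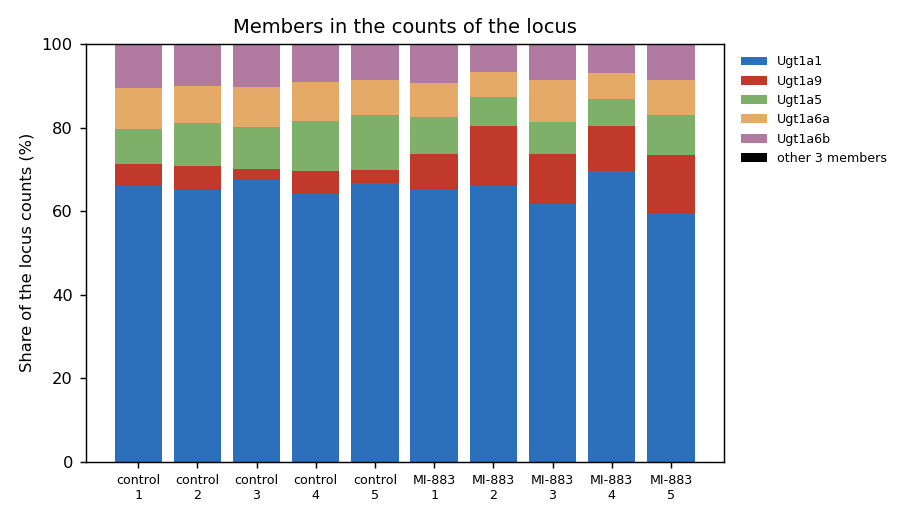
Share of each member in the counts of the locus (%), 1 bar per liver. *Ugt1a1* (blue) took between 59.5% and 69.5% in all livers, while *Ugt1a9* (red) took at most 5.80% in control livers and at least 8.23% in MI-883-treated livers, and the other 3 members are too few to be seen.

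Promoter sequence was set beside these values for the members that rose and for *Ugt1a10*, the closest relative of *Ugt1a9*, which was near the floor. The 250 bases upstream of each RefSeq start in GRCm38.p6 are printed 5′ to 3′ on the plus strand, at chr1:88070529-88070778 for *Ugt1a9*, chr1:88055161-88055410 for *Ugt1a10* and chr1:88211709-88211958 for *Ugt1a1*. Capitals mark matches to AGGTCA or AGTTCA, 2 forms of the half-site that nuclear receptors such as CAR and PXR are known to bind.
Ugt1a9: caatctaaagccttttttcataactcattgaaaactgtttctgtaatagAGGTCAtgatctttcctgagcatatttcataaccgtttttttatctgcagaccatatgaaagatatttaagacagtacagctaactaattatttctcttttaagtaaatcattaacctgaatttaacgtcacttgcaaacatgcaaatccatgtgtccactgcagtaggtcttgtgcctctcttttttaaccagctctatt
Ugt1a10: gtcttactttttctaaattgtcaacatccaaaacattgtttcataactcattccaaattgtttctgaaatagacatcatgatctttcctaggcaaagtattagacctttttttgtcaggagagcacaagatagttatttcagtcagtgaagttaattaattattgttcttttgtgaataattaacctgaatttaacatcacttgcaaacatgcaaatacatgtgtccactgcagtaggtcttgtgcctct
Ugt1a1: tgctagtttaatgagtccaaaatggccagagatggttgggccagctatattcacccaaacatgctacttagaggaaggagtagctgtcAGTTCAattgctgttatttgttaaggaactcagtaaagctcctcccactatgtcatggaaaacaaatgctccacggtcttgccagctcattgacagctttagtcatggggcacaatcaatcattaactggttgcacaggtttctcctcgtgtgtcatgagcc
The windows of *Ugt1a9* and *Ugt1a10* were 68.9% identical over 273 aligned columns, and no other pair of 7 member windows was more than 49.1% identical. AGGTCA was present in the windows of *Ugt1a9* and *Ugt1a7c*, at -201 and -242 from the start, and in 16.3% of 32851 windows of that length. AGTTCA was present in the window of *Ugt1a1*, at -162, and in 14.0% of all windows. *Ugt1a7c*, with the same AGGTCA, did not pass the test.

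Other motifs were searched on both strands in the same windows. GCGTG, the core that the aryl hydrocarbon receptor binds, was present in the window of *Ugt1a5*, at -49, and in 32.4% of all windows. TGACNNNGC, the antioxidant response core, was in 0 of 7 member windows and in 12.4% of all. The palindrome bound by HNF1 was in 0 of 7 and in 0.00913% of all windows. AGGTCA or AGTTCA repeated with a spacing of NNNN was in 0 of 7 windows, and its forms in at most 0.0152% of all. A match describes these letters in this window and no more, and a missing match likewise. *Ugt1a6b* was not included in the promoter table.

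The genes on either side of the locus were taken as neighbours on the chromosome. *Usp40*, upstream, had a log2 fold change of -0.12 with an SE of 0.101 and an adjusted P of 0.595 in edgeR. Downstream, *Mroh2a* had 0.08 with an adjusted P of 0.842 and *Hjurp* 0.11 with an adjusted P of 0.736 in edgeR. None of these neighbours passed the test, and the 3 had 0 leave-one-out fits under the threshold.

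The glucuronidation pathway supplies the members with UDP-glucuronic acid and disposes of glucuronides. The list taken for it also held genes that make or use free glucuronic acid or serve ascorbate synthesis, such as *Rgn* and *Miox*. Of the 13 listed genes, all were tested. In edgeR 1 was higher after MI-883 and 0 lower, beside 0.764% and 0.265% of all tested genes. The median log2 fold change was 0.02. At an unadjusted P under 0.05 in edgeR, 4 were higher and 1 lower, beside 8.09% and 7.49% of all tested genes. DESeq2 called 3 higher and 1 lower, *Rgn*, with an adjusted P of 0.0346, beside 2.2% and 1.3% of all tested genes. *Entpd5*, a nucleoside diphosphatase of the endoplasmic reticulum that hydrolyses UDP, was the gene called in edgeR. It was at 429 to 519 CPM in control and 541 to 754 CPM in treated livers, without overlap. Its log2 fold change was 0.45 with an SE of 0.0954 and an adjusted P of 0.0445 in edgeR. This call was lost with total counts as the library size and in 8 of the 10 fits that left out a liver, those without control liver 2, 3, 4 or 5 or MI-883-treated liver 2, 3, 4 or 5, where the adjusted P reached 0.122.

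*Ugdh*, which makes UDP-glucuronic acid from UDP-glucose, was at 219 ± 46.1 CPM in control and 313 ± 45.0 CPM in treated livers (S.D., n = 5). Its log2 fold change was 0.52 with an SE of 0.141, and its adjusted P was 0.112 in edgeR and 0.0156 in DESeq2. *Ugp2*, which makes UDP-glucose, had a log2 fold change of 0.01 and an SE of 0.102. *Slc35d1*, which carries UDP-glucuronic acid into the endoplasmic reticulum, had 0.03 and an SE of 0.101, and *Gusb*, which removes glucuronic acid again, 0.22 and an SE of 0.0800, with an adjusted P of 0.210 in edgeR. None of these 4 genes passed the edgeR test.

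*Miox*, which opens inositol to glucuronic acid and is known from kidney, was singled out after its values were seen. It was counted 1 to 3 times in controls and 3 to 47 times in treated livers, with an adjusted P of 0.0825 in edgeR and 0.00294 in DESeq2. A list of 4 kidney tubule markers summed to 0.196 to 0.776 CPM in control and 0.342 to 3.41 CPM in treated livers. Of these markers, 1 was tested. It was higher at an unadjusted P under 0.05 in edgeR, as were 8.09% of all tested genes. It did not pass after adjustment in edgeR or DESeq2. The part of kidney transcripts in the *Miox* values was not tested.

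Bilirubin is formed by heme oxygenases and biliverdin reductases, taken up by organic anion transporters and, once conjugated by *Ugt1a1*, exported by ABC transporters. Of 11 listed genes of bilirubin handling outside the locus, all were tested. In edgeR 1 was higher and 0 lower, beside 0.764% and 0.265% of all tested genes. The median log2 fold change was 0.12. At an unadjusted P under 0.05 in edgeR, 3 were higher and 1 lower, beside 8.09% and 7.49% of all tested genes. DESeq2 called 2 higher and 0 lower, beside 2.2% and 1.3% of all tested genes. *Abcc3*, which exports glucuronides across the basolateral membrane into blood, was the called gene, at 428 to 513 CPM in control and 571 to 752 CPM in treated livers, without overlap. Its log2 fold change was 0.46 with an SE of 0.0915 and an adjusted P of 0.0282 in edgeR. The call of *Abcc3* was lost in 7 of the 10 fits that left out a liver, those without control liver 2, 3, 4 or 5 or MI-883-treated liver 2, 4 or 5, where the adjusted P reached 0.0908.

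Other steps of bilirubin handling did not pass the edgeR test. *Abcc2*, the exporter of bilirubin glucuronides into bile, was at 305 ± 59.4 CPM in control and 366 ± 79.0 CPM in treated livers (S.D., n = 5), with a log2 fold change of 0.26 and an SE of 0.162. *Hmox1*, which opens the heme ring, had 0.17 with an SE of 0.121, and *Blvra*, a biliverdin reductase, had -0.21 with an SE of 0.0776. The other biliverdin reductase of the list, *Blvrb*, named after its values were seen, had a log2 fold change of 0.27 with an SE of 0.0793 and an adjusted P of 0.134 in edgeR and 0.0305 in DESeq2. *Blvrb* was at 160.0 to 206 CPM in control and 207 to 235 CPM in treated livers, without overlap. *Slco1b2*, an uptake transporter of the basolateral membrane, had -0.08 with an SE of 0.0900. *Gsta1*, named after its values were seen, had the largest log2 fold change of the list, 1.58 with an SE of 0.508. Its adjusted P was 0.168 in edgeR and 0.152 in DESeq2, and the ranges of the groups overlapped.

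Of 12 genes that encode known regulators of the locus, 0 passed the edgeR test in either direction, beside 0.764% higher and 0.265% lower of all tested genes. At an unadjusted P under 0.05 in edgeR, 1 was higher and 0 lower, beside 8.09% and 7.49% of all tested genes. DESeq2 called 1 higher and 0 lower, beside 2.2% and 1.3% of all tested genes. *Ahr*, the aryl hydrocarbon receptor, was at 39.4 ± 10.7 CPM in control and 64.1 ± 14.1 CPM in treated livers (S.D., n = 5), with a log2 fold change of 0.70, an SE of 0.191 and an adjusted P of 0.109 in edgeR and 0.0145 in DESeq2. *Nfe2l2*, the regulator of the antioxidant response, had a log2 fold change of 0.16 and an SE of 0.113. Counts on the mouse genes of PXR (*Nr1i2*, 12.5 ± 2.46 CPM in control livers) and CAR (*Nr1i3*, 7.48 ± 1.64 CPM) had log2 fold changes of 0.07 and -0.16. Since the receptors of these mice are human and reads were aligned to the mouse genome, these counts are no measure of the human receptors.

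**Figure D5:**
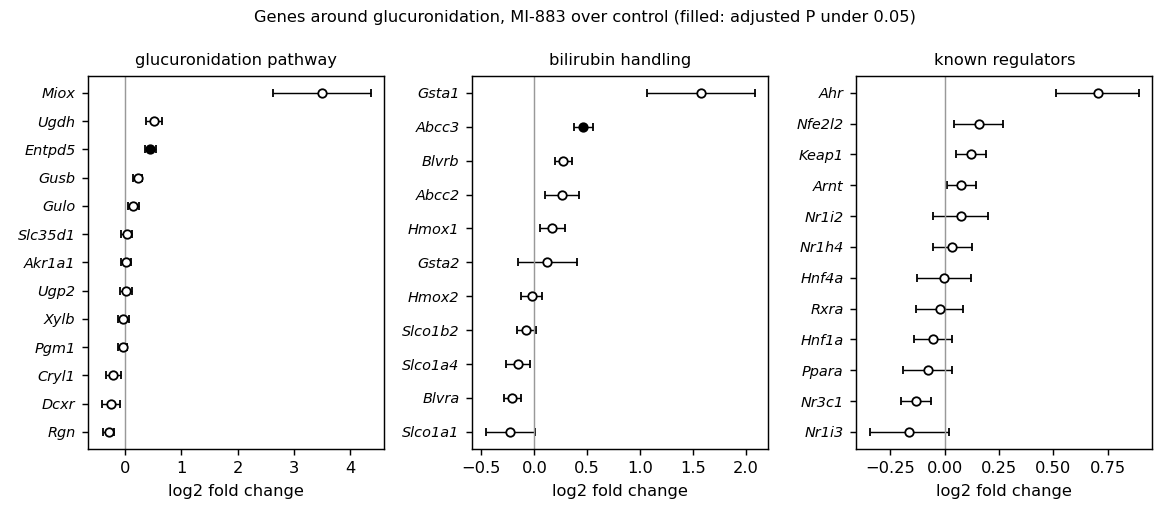
Log2 fold change, MI-883 over control, with SE from edgeR, for 13 genes of the glucuronidation pathway, 11 of bilirubin handling and 12 known regulators. The horizontal axes differ between panels. Filled circles had an adjusted P under 0.05, *Entpd5* at 0.45 and *Abcc3* at 0.46, and open circles did not.

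By their shape across livers, the genes most like *Ugt1a1* were sought among 11605 tested genes outside the locus with a mean of at least 1 CPM. The measure was the root mean square difference over the 10 livers of log2 CPM centred on the control mean. The 5 closest were *Slc6a9*, *Pik3cb*, *Pard3b*, *Sh3bp2* and *Abcc3*, at 0.131 to 0.147, against a median of 0.468 over all genes compared. *Slc6a9*, a glycine transporter, had a log2 fold change of 0.64 and *Pik3cb*, a catalytic subunit of phosphoinositide 3-kinase, had 0.49. *Abcc3* was also the called gene of bilirubin handling. Since the measure is centred on the control mean, the size of the change enters it, and genes with a like log2 fold change rank close. The likeness is therefore a description and adds nothing to the call of *Abcc3*.

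The liver label was checked against markers. A list of 6 hepatocyte markers, albumin among them, summed to 75182 to 88010 CPM in control and 62983 to 76101 CPM in treated livers. All 6 had negative log2 fold changes, with a median of -0.26. None passed the edgeR test, 3 had an unadjusted P under 0.05, and DESeq2 called 1 lower. The ranges of the sum overlapped narrowly, and hepatocyte markers were abundant in every liver. Of 5 bile duct markers, 0 passed in edgeR or DESeq2, 1 had an unadjusted P under 0.05, all 5 had positive log2 fold changes with a median of 0.55, and their sum was 25.0 to 117 CPM in control and 35.1 to 190 CPM in treated livers. Of 4 intestinal epithelium markers listed, 2 were tested and 0 passed, and their sum was 22.0 to 30.0 CPM in control and 23.1 to 32.5 CPM in treated livers, nearly all of it *Lgals4*. Kupffer, endothelial, stellate, lymphocyte, neutrophil and exocrine pancreas markers also had 0 calls in edgeR and DESeq2. At an unadjusted P under 0.05, 2 endothelial and 2 stellate markers were higher, and none of the others differed. Of all tested genes, 8.09% were higher and 7.49% lower at an unadjusted P under 0.05 in edgeR. DESeq2 called 2.2% of all tested genes higher and 1.3% lower. The part of cell composition in the changes of the members was not tested.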

How the data were processed

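Liver RNA was prepared with a directional library kit and sequenced. The authors trimmed reads with fastp 0.23.0, aligned them to the mouse genome (mm10) with STAR and obtained gene counts from featureCounts, per the submitters' processing notes and the paper's methods. The authors deposited the raw counts of each gene under its Entrez number, not normalized. The annotation, the strand setting and the handling of reads on several genes are not given in the sources used here. Of 16647 genes, 16644 had a RefSeq symbol and 3 had none.

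The labels' condition gave the groups, and each library is from another animal. The members and gene lists were chosen with earlier results of these data known. A gene entered the test if its counts in the 10 livers added up to 60 or more (13219 genes). The test used edgeR 4.0.16 in R 4.3.3 (TMM, quasi-likelihood), with no covariate besides treatment, Benjamini-Hochberg adjustment over all tested genes and a threshold of 0.05. The SE is the size of the log2 fold change divided by the square root of F. Single members were also compared by exact permutation (two-sided) of the means of log2(CPM + 0.5) in scipy 1.17.1. The floor was set at 3 counts per liver, which covers counting error only. Exons were taken from GENCODE M21, promoters from RefSeq GRCm38.p6, and identity from global alignment with Biopython 1.88.

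All 8 members were named, then genes of the 3 lists past the threshold with up to 4 others per list by the step they carry out, and the 5 genes most like *Ugt1a1*. *Miox*, *Rgn*, *Blvrb*, *Gsta1* and the genes most like *Ugt1a9* were added after seeing the data. Alternatives were the Wald test of DESeq2 1.42.0, size factors of DESeq2, total counts, 60 counts in every sample, no filter, filterByExpr, a block for the replicate number, and leaving out each liver. Counts of 13149 genes were simulated for this comparison. edgeR recovered 95% of genes changed by 1 on the log2 scale and 100% of those changed by 2, with 3.94% false calls. DESeq2 recovered 97% and 100%, with 12.8% false calls. Changes were simulated only in genes above a minimum mean count, which *Ugt1a10* and *Ugt1a7c* did not reach. A change as small as that of *Ugt1a1* was not simulated, so the rates do not cover it.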

Additional observations from a re-analysis of the deposited data

Results flagged for a closer look

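In 20 groups of 5 livers (8 members, the locus sum and the ratio of *Ugt1a1* to the rest, each in control and MI-883-treated livers), a liver far from the other 4 by Dixon's criterion was found in 2. Chance alone gives about 1 in 20 such groups. *Ugt1a6b* was at 25.9 CPM in control liver 4, against 32.3 CPM in the next control liver. Without this liver the log2 fold change of *Ugt1a6b* was 0.24, with an adjusted P of 0.315 in edgeR. *Ugt1a2* was at 0.132 CPM in control liver 5, which corresponds to 3 counts, and at 0 in the other 4 control livers.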

How the results depend on the processing

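The call of *Ugt1a9* held in all 7 alternative settings, with log2 fold changes of 2.04 to 2.10, and in all 10 fits that left out a liver. *Ugt1a1* was called in 6 of the 7 settings and 4 of the 10 fits, and the other tested members in none. The number of members called higher was 1 with the replicate number as a block, where the adjusted P of *Ugt1a1* was 0.0530, and 1 to 2 over the fits leaving out a liver. Same-numbered livers share only a number: their deviations correlated at 0.360, -0.121, -0.102, 0.0761 and 0.0790, and no control liver correlated best with its own number. With the block, 17 genes were called lower in all, and 0 of the glucuronidation pathway and 0 of bilirubin handling were called higher (adjusted P of 0.113 for *Entpd5* and 0.0948 for *Abcc3*). DESeq2 called 291 genes higher and 172 lower, 3 glucuronidation genes higher and 1 lower, 2 bilirubin genes higher and 1 regulator higher. Total counts left 0 glucuronidation genes. Leaving out a liver gave 52 to 148 genes higher and 9 to 60 lower, and 0 to 2 higher in each of the glucuronidation and bilirubin lists. The difference in log2 ratio of *Ugt1a1* to the rest changed sign, to 0.40, with *Ugt1a5* alone as the denominator, which leaves out *Ugt1a9* and the remaining members. The causes of these shifts were not tested. Total counts moved the median of all genes by 0.044 on the log2 scale. The locus sum, the order of levels and the shared sequence kept their values within the spread between livers or members. *Ugt1a2*, *Ugt1a10* and *Ugt1a7c* had at most 3, 26 and 29 counts per liver. The parts of counting error and of spread between animals in the SEs of *Ugt1a10* and *Ugt1a7c* were not tested.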

Other observations

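The genes closest to *Ugt1a9* across the 10 livers, by the measure used for *Ugt1a1* and chosen after its values were seen, were *Abcc4*, *Gstm2*, *Ackr3*, *Mesp2* and *Cyp2c50*, at a root mean square difference of 0.417 to 0.480 in log2 CPM, against a median of 1.53 over 11605 genes. *Abcc4*, an exporter of glucuronides and other anions across the basolateral membrane, was at 3.43 ± 0.703 CPM without and 18.9 ± 4.06 CPM with MI-883 (S.D., n = 5), with a log2 fold change of 2.45 and an adjusted P of 7.2e-06 in edgeR. *Gstm2*, a glutathione transferase, was at 136 ± 28.0 and 398 ± 57.5 CPM, with a log2 fold change of 1.55 and an adjusted P of 0.000112 in edgeR. *Cyp2c50*, a cytochrome P450 of a family of closely related genes, between which the sharing of reads was not tested, was at 499.5 ± 87.1 and 1874 ± 231 CPM, with a log2 fold change of 1.91 in edgeR. *Ugt1a9* itself enters this choice. As for *Ugt1a1*, the measure is centred on the control mean, so the size of the change enters it and the median over all genes. Genes with a like log2 fold change therefore rank close. The likeness is a description and adds nothing to the calls of these genes.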
